A study of Mus musculus with 6 samples.

Results

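This report is about 41 genes of the NRF2 antioxidant response in mouse MC3T3-E1 cells, a pre-osteoblast line derived from calvaria: NRF2 (Nfe2l2) and its inhibitor Keap1, NRF2 targets, and enzymes that make glutathione or use it, thioredoxin or NADPH against oxidants. They were chosen by name as a hand-made list of pathway genes, and all 41 were found among the 26187 genes of the deposited tables. The PAKG group (n = 3) received microparticles of a polyester that contains α-ketoglutarate, named PAKG–8diol–PEG(S) MPs, over 2 days and at a concentration of 30 μg/mL. The OC group (n = 3) had no MPs and was kept for the same time. Both groups were in the same osteoconductive (OC) medium with serum, β-glycerophosphate and ascorbic acid, which is itself a reducing agent. No group with particles of another polymer is among these libraries, so effects of taking up particles and of α-ketoglutarate cannot be told apart here. The study's methods describe replicate wells for its cell experiments in general, and which wells or repeats the 3 libraries of a group came from is not given in the sources used here, so that p-values measure no more than the spread among these 6 libraries, and that may be technical.

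NRF2 is a transcription factor that is made continuously and degraded continuously, because KEAP1 presents it to a ubiquitin ligase. When oxidants or electrophiles modify cysteines of KEAP1, NRF2 escapes degradation, pairs with a small MAF protein and binds the antioxidant response element (ARE) of its target genes. Its targets import cystine, make and reduce glutathione, reduce thioredoxin, degrade heme, store iron and supply NADPH. NRF2 activity is set largely at the protein level, and RNA values of Nfe2l2 do not measure it.

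Poly(A) RNA was sequenced, and the values are the authors' FPKM per gene. Totals were 289675.86 to 310581.74 FPKM per PAKG library and 295863.62 to 325818.25 per OC library. Depth, as estimated from low FPKM values of genes of 250 to 800 bases, was 32700000 to 42200000 fragments in PAKG and 32400000 to 36900000 in OC, so that 1 fragment on 1 kb was worth 0.0237 to 0.0309 FPKM. Osteoblast markers were present in every library, with 7 genes summing to 6829 to 7579 FPKM in PAKG and 4659 to 5714 FPKM in OC. The 4 macrophage markers found of 6 listed summed to 16.0 to 17.57 FPKM in PAKG and 9.21 to 12.08 FPKM in OC, nearly all of it Lyz2, while Ptprc, which marks all leukocytes, was at 0 in 5 libraries and at 0.01 FPKM in OC replicate 2. The part of this difference in the results below was not tested. Endothelial markers did not exceed 0.03 FPKM in sum, and adipocyte markers were at 0 in PAKG and reached 0.87 FPKM in sum in OC replicate 3. The 3 skeletal muscle markers found of 4 listed summed to 1.1 to 1.15 FPKM in PAKG and 0.3 to 0.46 FPKM in OC, nearly all of it Acta1, and their part was not tested either.

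Of the 38 members tested 5 were called changed with PAKG MPs, in both directions. Gstm1 and Hmox1 rose, whereas Gclc, Gsr and Nfe2l2 fell, each by less than a factor of 2. Genes were compared with limma on log2(FPKM + 0.1) over 12590 genes whose mean reached 0.5 FPKM, 2-sided, and called at a Benjamini-Hochberg adjusted p under 0.05. Of the 41 members 38 were tested, and Slc7a11, Gsta4 and Mgst1 lay under the minimum. Of the 38, 2 were called higher (5.26%, against 5.97% of all genes tested) and 3 lower (7.89%, against 8.73% of all genes tested). These shares are near those of all genes, so the counts are no result about the members as a set. The median log2 fold change was 0.01 over the members and -0.03 over all genes tested, and 30 of the 38 values lay within 0.25 of 0. With the study's added threshold of a 2-fold change, limma called 0 members, where 1.45% of all genes tested passed. At an unadjusted p under 0.05, 0 members reached a 2-fold change, 4 were higher (10.5%, against 12.0% of all genes) and 6 were lower (15.8%, against 16.8% of all genes). Standard errors of the log2 fold changes were 0.06 to 0.16 for members above 2 FPKM, so small changes could not be called, and a member without a call is not shown to be unchanged. All 3 PAKG libraries lay above all 3 OC libraries in 5 tested members (13.2%, against 13.7% of all genes) and below them in 7 (18.4%, against 19.6% of all genes).

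Libraries with the same replicate number deviated together, so the number was also fitted as a block. This pairing was read from these same data, so calls with the block do not show that libraries were paired by design. With the block, limma called 13 members, 5 higher (13.2%, against 12.3% of all genes) and 8 lower (21.1%, against 17.1%), and all 5 members called without it were among them. The 8 added were Gstm2, Nqo1 and Prdx5 on the higher side and Srxn1, Txnrd1, G6pdx, Prdx3 and Prdx4 on the lower side. Rescaling the libraries to a common total raised the share of higher genes among all genes called to 53.3%, against 40.6% as deposited, and with median-ratio scaling it was 47.4%. The 5 called members kept their call and direction under both scalings, and Gstm2 was then called higher too.

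**Figure D1:**
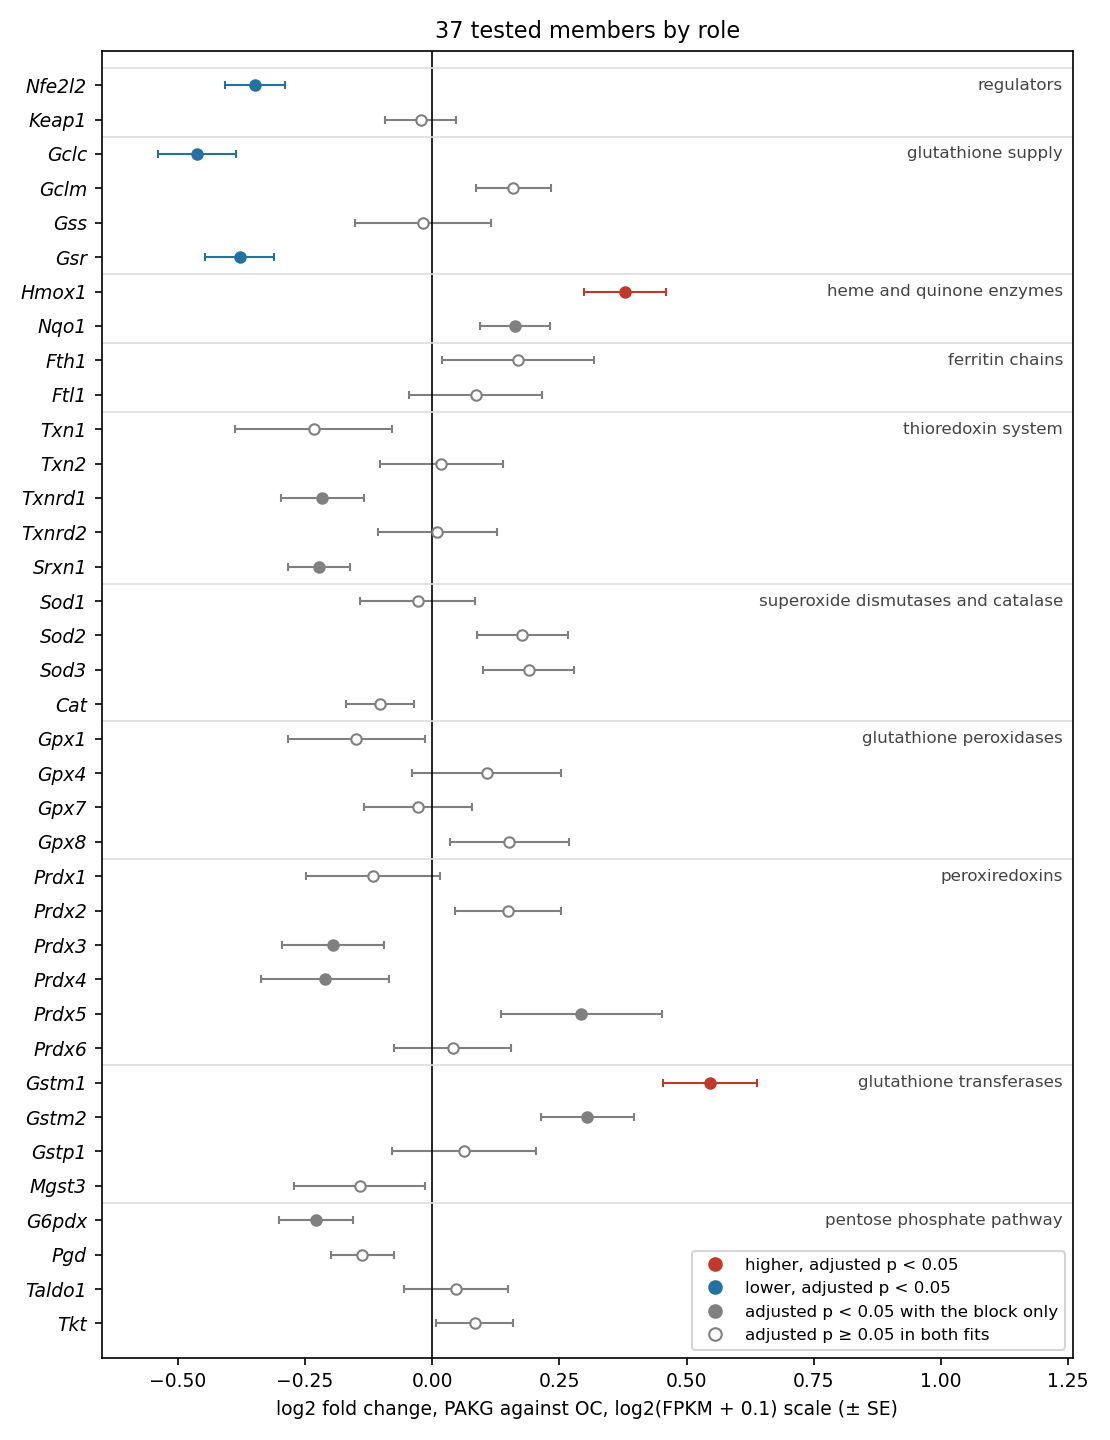
Log2 fold change, PAKG against OC, of 37 tested members on the log2(FPKM + 0.1) scale, ordered by role; points are limma estimates and bars are ± 1 standard error (n = 3 libraries per group). Filled grey points are called with the replicate block only, and open points in neither fit. Gpx3, at 1.43 ± 1.12, is left out of the plot. Gstm1 and Hmox1 (red) lie right of 0, Gclc, Gsr and Nfe2l2 (blue) lie left of it, and most other members lie within 0.25 of 0.

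Nfe2l2, the gene of NRF2 (ENSMUSG00000015839, chromosome 2, 75675513 to 75704641, minus strand of GRCm38, as all coordinates here), had 23.39, 23.28 and 22.40 FPKM in the PAKG libraries, against 29.44, 29.40 and 29.17 FPKM in the OC libraries. The groups were far apart relative to their spread, and the OC libraries were nearly equal. The log2 fold change was -0.35 ± 0.06 (SE, limma adjusted p = 0.00875), a fall of 21.5% on that scale. With PAKG replicate 3 left out the value was -0.33 and the call was lost (limma adjusted p = 0.0661). Keap1, whose protein holds NRF2 for degradation (ENSMUSG00000003308, chromosome 9, 21229730 to 21239361), had 13.23, 13.58 and 14.07 FPKM in PAKG, against 14.52, 13.92 and 13.11 FPKM in OC. Its groups overlapped (log2 fold change -0.02 ± 0.07 SE, adjusted p = 0.874), and the sign turned to 0.02 after rescaling to a common total. Keap1 shares exon sequence with Gm16754 on the opposite strand, and the strand setting of the authors' counting is not given in the sources used here.

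Promoters were read for the ARE core, the letters TGACNNNGC on either strand, in RefSeq windows of GRCm38.p6 that reach from 250 bases before a gene's start to 50 bases after it. Of the 41 members 35 matched a window by symbol. Hmox1, Gclc, Gsr, Gsta4, Prdx6 and Sod3 did not. The core stood in a window of 9 of the 35 genes (25.7%), against 14.0% of all 27025 genes with a window. Over windows, where a gene can have several, the shares were 20.5% of 44 member windows and 12.4% of all 32851. The 9 genes were Nfe2l2, Gclm, Srxn1, Txnrd1, Prdx1, Sod1, G6pdx, Pgd and Mgst1. Of the 5 called members, Nfe2l2 is among them, Gstm1 had windows without the core, and Hmox1, Gclc and Gsr had no window to read. Mgst1 was not tested. The core can overlap the AP-1 letters TGACTCA, which occurred in 5.2% of all windows and, among these 9 genes, in those of Prdx1 and Srxn1. In Prdx1 the core holds these letters, while in Srxn1 they lie outside the core. Windows are shown for 4 members that moved apart: Nfe2l2 fell, its neighbours in function Gclm and Gstm2 were higher in every PAKG library without a call, and Gstm1 rose. Capitals mark the ARE core, which in Gclm is read on the opposite strand. The 4 windows lie at chr2:75704614-75704913 (minus strand), chr3:122245307-122245606 (plus), chr3:108017924-108018223 (minus, the first of 2 start sites) and chr3:107986371-107986670 (minus).
Nfe2l2: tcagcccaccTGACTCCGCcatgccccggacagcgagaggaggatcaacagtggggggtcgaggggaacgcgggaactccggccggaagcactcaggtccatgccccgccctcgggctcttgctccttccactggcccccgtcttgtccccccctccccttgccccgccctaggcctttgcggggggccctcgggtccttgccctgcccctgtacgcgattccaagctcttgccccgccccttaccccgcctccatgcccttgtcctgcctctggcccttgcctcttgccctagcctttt
Gclm: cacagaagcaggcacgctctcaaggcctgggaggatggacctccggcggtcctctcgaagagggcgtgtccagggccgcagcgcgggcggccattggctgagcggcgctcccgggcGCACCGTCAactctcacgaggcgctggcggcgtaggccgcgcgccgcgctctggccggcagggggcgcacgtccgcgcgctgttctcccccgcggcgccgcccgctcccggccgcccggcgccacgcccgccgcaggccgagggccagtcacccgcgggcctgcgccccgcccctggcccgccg
Gstm1: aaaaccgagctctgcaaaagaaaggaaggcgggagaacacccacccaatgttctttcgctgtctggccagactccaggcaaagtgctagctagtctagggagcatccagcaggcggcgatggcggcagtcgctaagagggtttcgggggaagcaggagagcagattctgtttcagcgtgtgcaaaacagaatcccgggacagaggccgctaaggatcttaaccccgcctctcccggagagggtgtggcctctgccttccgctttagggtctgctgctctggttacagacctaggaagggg
Gstm2: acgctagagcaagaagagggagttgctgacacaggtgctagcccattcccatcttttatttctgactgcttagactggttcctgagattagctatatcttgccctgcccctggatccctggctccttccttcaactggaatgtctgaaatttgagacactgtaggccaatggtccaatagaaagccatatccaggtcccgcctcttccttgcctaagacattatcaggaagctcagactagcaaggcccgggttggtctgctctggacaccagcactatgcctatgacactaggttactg

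In Nfe2l2 the core begins 240 bases before the start site and in Gclm 134 bases before it, while the windows of Gstm1 and Gstm2 hold none. Gstm1 and Gstm2 are neighbours on chromosome 3, and their windows shown here share 177 of 300 bases (59.0%) in a global alignment. The window at the other Gstm1 start site was not aligned, and the share between unrelated windows was not measured. Member windows were richer in G and C, with a median of 60.2% against 52.7% over all windows. A match is a description of letters and does not show that NRF2 binds there, and AREs outside the window were not read.

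Among the genes of glutathione supply, Gclc and Gsr fell, and Gclm and Gss were not called. Gclc, the catalytic subunit of glutamate-cysteine ligase and the first and rate-limiting enzyme of glutathione synthesis (ENSMUSG00000032350, chromosome 9, 77754535 to 77794485), had 11.01, 12.27 and 11.11 FPKM in PAKG, against 15.71, 16.72 and 15.06 FPKM in OC. The highest PAKG value lay below the lowest OC value. The log2 fold change was -0.46 ± 0.08 (SE, limma adjusted p = 0.00773), a fall of 27.4%, and it was called without any single library (adjusted p up to 0.0472). Gsr, glutathione reductase, which returns oxidised glutathione to its reduced form with NADPH (ENSMUSG00000031584, chromosome 8, 33652523 to 33698163), had 23.02, 20.83 and 21.37 FPKM in PAKG, against 28.47, 28.80 and 27.54 FPKM in OC. The groups did not overlap, with a log2 fold change of -0.38 ± 0.07 (SE, adjusted p = 0.0101). Without PAKG replicate 3 it was -0.37 with an adjusted p of 0.0640.

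Gclm, the modifier subunit that raises the affinity of the ligase for glutamate (ENSMUSG00000028124, chromosome 3, 122245557 to 122270732), had 7.33, 6.56 and 7.13 FPKM in PAKG, against 6.32, 6.25 and 6.20 FPKM in OC. All PAKG values were above the OC values, but the difference was not called (log2 fold change 0.16 ± 0.07 SE, adjusted p = 0.204). Gclm overlaps exons of Gm6061 on the same strand and Gm17494 on the other, so its reads may be divided. Gss, glutathione synthetase, averaged 7.34 ± 1.06 FPKM in PAKG and 7.42 ± 0.912 FPKM in OC (SD, n = 3 each; log2 fold change -0.02, limma adjusted p = 0.951). Slc7a11, the subunit of the cystine importer that carries the transport, was low, with 0.07, 0.12 and 0.06 FPKM in PAKG, against 0.16, 0.14 and 0.16 FPKM in OC. On its transcript of 9223 bases these values are worth an estimated 18.1 to 38.0 fragments in PAKG and 47.6 to 53.7 in OC. The PAKG values were the lower ones, and the gene was not tested in the main comparison, being under the minimum mean. With no filter on low values its log2 fold change was -0.48 ± 0.20 (SE, adjusted p = 0.295 over 25742 genes).

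**Figure D2:**
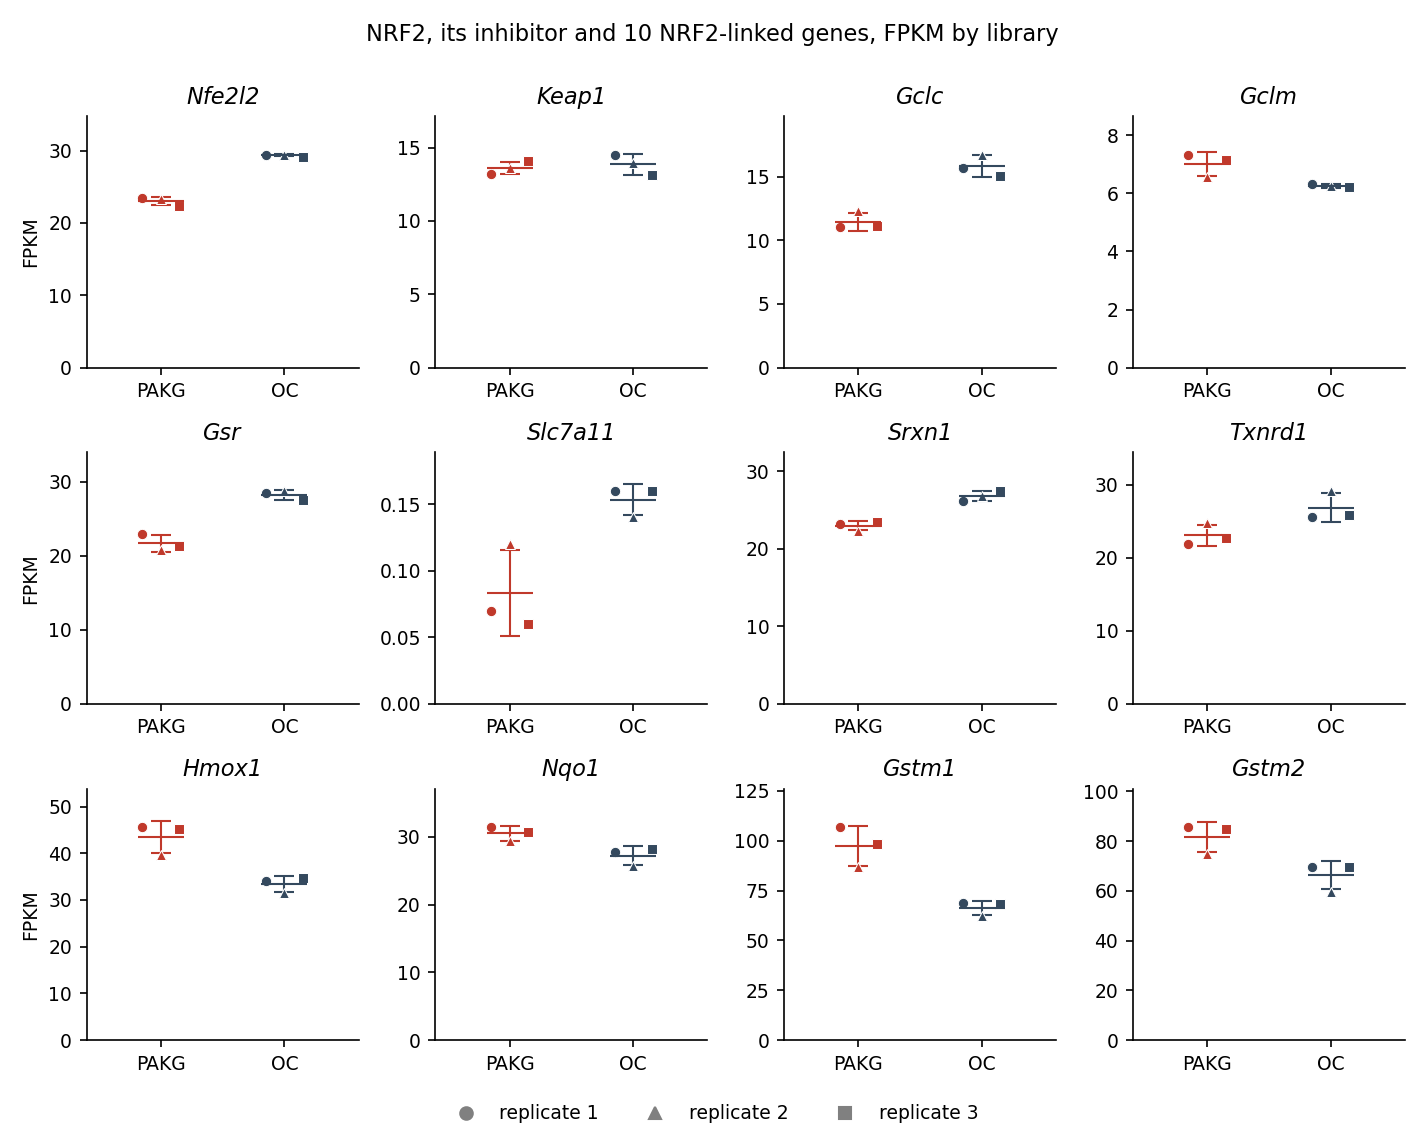
FPKM of 12 members in the 3 PAKG (red, left) and 3 OC (dark, right) libraries, on linear axes that start at 0. Symbols are libraries by replicate number, horizontal marks give means, with SD as whiskers (n = 3). Nfe2l2, Gclc, Gsr, Slc7a11, Srxn1 and Txnrd1 lie lower in all PAKG libraries, Gclm, Hmox1, Nqo1, Gstm1 and Gstm2 lie higher, and the Keap1 groups overlap.

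Within each library the ratio of the subunits of glutamate-cysteine ligase does not depend on the scaling of that library. Gclm over Gclc was 0.666, 0.535 and 0.642 in PAKG, against 0.402, 0.374 and 0.412 in OC. Each PAKG ratio was above each OC ratio, and the mean log2 ratio differed by 0.63. An exact 2-sided permutation test gave p = 0.1 (n = 3 each), the smallest p that 3 against 3 libraries allow. Gclm was higher and Gclc lower in every PAKG library, so this separation follows from those values and the test adds nothing to them. The ferritin ratio Fth1 over Ftl1 was 0.420, 0.373 and 0.387 in PAKG, against 0.358, 0.368 and 0.386 in OC, and the groups overlapped (exact permutation p = 0.2). Gstm1 over Gstm2 was 1.25, 1.16 and 1.16 in PAKG, against 0.988, 1.04 and 0.984 in OC (exact permutation p = 0.1), without overlap. The 3 ratios were chosen after the values were seen, and adjusted over the 3 tests (Benjamini-Hochberg) these exact permutation p-values were 0.15, 0.2 and 0.15.

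**Figure D3:**
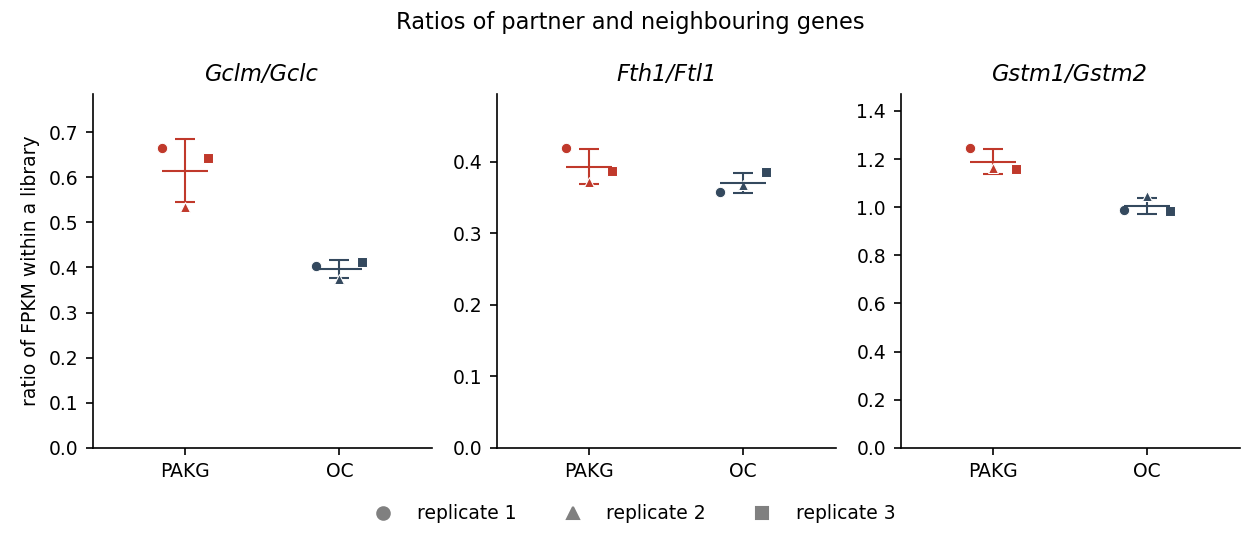
Ratio of FPKM of paired genes within each library, on axes that start at 0, for Gclm over Gclc, Fth1 over Ftl1 and Gstm1 over Gstm2. Symbols are libraries by replicate number, PAKG in red on the left and OC in dark on the right, with means and SD (n = 3). The Gclm over Gclc ratios lie at 0.535 or above in PAKG and at 0.412 or below in OC.

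Hmox1, heme oxygenase 1, which breaks heme into biliverdin, iron and carbon monoxide (ENSMUSG00000005413, chromosome 8, 75093621 to 75100589), had 45.61, 39.62 and 45.21 FPKM in PAKG, against 34.02, 31.46 and 34.68 FPKM in OC. The lowest PAKG library was above the highest OC library. The log2 fold change was 0.38 ± 0.08 (SE, limma adjusted p = 0.0209), a rise of 30.0%, and with the block the adjusted p was 0.00325. The call was lost without any single library other than PAKG replicate 2, with adjusted p of 0.0599 to 0.102 and log2 fold changes of 0.34 to 0.41. Hmox1 is also a macrophage gene, and the macrophage markers did not move together. Lyz2 had 15.22 to 16.95 FPKM in PAKG and 8.51 to 11.46 FPKM in OC. Csf1r, a defining receptor of that lineage, had 0.22 to 0.29 FPKM in PAKG and 0.06 to 0.12 FPKM in OC. Cd68 overlapped, with 0.34 to 0.69 FPKM in PAKG and 0.52 to 0.63 FPKM in OC, and Ptprc was at 0 in PAKG. The part of these markers in the Hmox1 values was not tested. Nqo1, NAD(P)H quinone dehydrogenase 1, which reduces quinones in a single step of both electrons and answers to the aryl hydrocarbon receptor as well as NRF2 (ENSMUSG00000003849, chromosome 8, 107388225 to 107403206), had 31.44, 29.33 and 30.72 FPKM in PAKG, against 27.76, 25.70 and 28.26 FPKM in OC. The groups did not overlap, but the difference was small and not called (log2 fold change 0.16 ± 0.07 SE, adjusted p = 0.166). With the block the adjusted p was 0.0400.

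The ferritin chains, which store iron of the kind that heme breakdown releases, were the most abundant members. They made up 44.9 to 47.4% of the summed FPKM of the members in PAKG and 43.9 to 44.5% in OC, and all members together 1.08 to 1.30% of a library in PAKG and 1.09 to 1.20% in OC. Fth1, the heavy chain with the ferroxidase site, had 557.21, 383.58 and 517.20 FPKM in PAKG, against 444.37, 384.38 and 456.18 FPKM in OC. Replicate 2 of both groups was low and equal, so the groups overlapped (log2 fold change 0.17 ± 0.15 SE, limma adjusted p = 0.513). Without replicate 2 of both groups it was 0.25 (adjusted p = 0.0451). Ftl1, the light chain, averaged 1231 ± 174 FPKM in PAKG and 1155 ± 100 FPKM in OC (SD, n = 3 each; log2 fold change 0.09, limma adjusted p = 0.725). Of the 75-base stretches of its longest coding transcript, 69.9% also occur in transcripts of other genes, mainly Ftl1 pseudogenes, so its value is uncertain.

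The thioredoxin system had no call. Txnrd1, the cytosolic thioredoxin reductase, a selenoprotein that reduces thioredoxin with NADPH (ENSMUSG00000020250, chromosome 10, 82833951 to 82897712), had 21.93, 24.73 and 22.70 FPKM in PAKG, against 25.57, 29.19 and 25.92 FPKM in OC. The PAKG libraries were the lower ones, and replicate 2 was the highest in both groups. The log2 fold change was -0.22 ± 0.08 (SE, limma adjusted p = 0.127), with the block an adjusted p of 0.0163. Srxn1, sulfiredoxin, which repairs overoxidised peroxiredoxins (ENSMUSG00000032802, chromosome 2, 152105516 to 152111376), had 23.24, 22.35 and 23.42 FPKM in PAKG, against 26.25, 26.82 and 27.50 FPKM in OC. It lay just past the threshold (log2 fold change -0.22 ± 0.06 SE, limma adjusted p = 0.0507). With the block (0.0171), a pseudocount of 1 (0.0498) or a filter at 1 FPKM (0.0485) Srxn1 was called lower. Under the other alternatives it was not called, among them a common total (0.14), median-ratio scaling (0.0677) and each library left out (0.0712 to 0.181). Txn1, cytosolic thioredoxin itself, had 332.89, 228.03 and 310.88 FPKM in PAKG, against 341.76, 299.64 and 374.07 FPKM in OC, and the groups overlapped (log2 fold change -0.23 ± 0.15 SE, adjusted p = 0.375). The mitochondrial pair differed between groups by less than the spread of its replicates. Txn2 averaged 27.7 ± 3.21 FPKM in PAKG and 27.3 ± 3.38 FPKM in OC, and Txnrd2 3.45 ± 0.420 FPKM in PAKG and 3.42 ± 0.296 FPKM in OC (SD, n = 3 each).

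None of the superoxide dismutases, which turn superoxide into hydrogen peroxide, nor catalase, which removes the peroxide, was called. Sod1, the cytosolic enzyme, averaged 31.7 ± 4.57 FPKM in PAKG and 32.2 ± 2.28 FPKM in OC (SD, n = 3 each; log2 fold change -0.03, limma adjusted p = 0.904). Sod2 of mitochondria had 9.47, 7.73 and 8.72 FPKM in PAKG, against 7.50, 7.51 and 7.81 FPKM in OC (log2 fold change 0.18 ± 0.09 SE, adjusted p = 0.24). Its OC values were nearly equal and its PAKG values spread, with PAKG replicate 2 inside the OC range. For the secreted Sod3 the log2 fold change was 0.19 (adjusted p = 0.211), and for Cat it was -0.10 (0.372).

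Glutathione peroxidases reduce peroxides, most of them with glutathione, and of the 5 members none was called. Gpx1, the general cytosolic enzyme, averaged 144.5 ± 14.1 FPKM in PAKG and 161 ± 27.0 FPKM in OC (SD, n = 3 each; log2 fold change -0.15, limma adjusted p = 0.52). Gpx4, which reduces lipid peroxides in membranes and guards against ferroptosis, averaged 81.8 ± 12.7 FPKM in PAKG and 75.9 ± 11.2 FPKM in OC (log2 fold change 0.11, adjusted p = 0.686), and 55.3% of its 75-base stretches also occur in other genes. Gpx7 and Gpx8, enzymes of the endoplasmic reticulum, where collagen is folded, differed by -0.03 (adjusted p = 0.897) and 0.15 (0.45) on the log2 scale. Gpx3, the secreted plasma enzyme (ENSMUSG00000018339), varied most between libraries of 1 group, with 1.14, 1.56 and 0.13 FPKM in PAKG, against 0.00, 0.06 and 1.42 FPKM in OC. Both groups held high and low libraries, and its log2 fold change was 1.43 ± 1.12 SE (limma adjusted p = 0.454). The adipocyte marker Adipoq was listed at 0 in the 3 PAKG libraries and in OC replicate 1. It was at 0.04 FPKM in OC replicate 2 and at 0.36 FPKM in OC replicate 3. The part of adipocyte markers in the Gpx3 values was not tested.

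Peroxiredoxins reduce peroxides, most of them with thioredoxin, and none of the 6 was called. Prdx5, found in mitochondria, peroxisomes and cytosol (ENSMUSG00000024953, chromosome 19, 6906697 to 6910106), had 103.93, 69.36 and 84.45 FPKM in PAKG, against 75.75, 59.37 and 73.54 FPKM in OC. Within each replicate number the PAKG value was the higher one, while the groups overlapped (log2 fold change 0.29 ± 0.16 SE, limma adjusted p = 0.273, with the block 0.0222). Prdx4 of the endoplasmic reticulum had 51.43, 40.26 and 49.58 FPKM in PAKG, against 57.69, 46.73 and 59.15 FPKM in OC (log2 fold change -0.21 ± 0.13 SE, adjusted p = 0.322, with the block 0.0185). Here the PAKG value was the lower one at each number. Prdx3 of mitochondria had 74.44, 67.02 and 80.21 FPKM in PAKG, against 90.09, 75.38 and 88.41 FPKM in OC, lower at each number too (log2 fold change -0.19 ± 0.10 SE, adjusted p = 0.248, with the block 0.0309). The other three had log2 fold changes of -0.12 for Prdx1 (adjusted p = 0.618), 0.15 for Prdx2 (0.401) and 0.04 for Prdx6 (0.862), and none was called with the block.

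Glutathione transferases join glutathione to electrophiles, and Gstm1, of the mu class, rose. Gstm1 (ENSMUSG00000058135, chromosome 3, 108012255 to 108017973) had 106.91, 86.82 and 98.19 FPKM in PAKG, against 68.56, 62.42 and 68.42 FPKM in OC. It was the largest called change among the members, with a log2 fold change of 0.55 ± 0.09 (SE, limma adjusted p = 0.00836), a rise of 45.9%. The call held without any single library (adjusted p up to 0.0440). Of its 75-base stretches 14.8% also occur in other transcripts, among them Gstm2-ps1 and Gstm3. Gstm2 (ENSMUSG00000040562, chromosome 3, 107981702 to 107986453) had 85.68, 74.69 and 84.89 FPKM in PAKG, against 69.42, 59.73 and 69.51 FPKM in OC. The groups did not overlap, and the difference missed the threshold (log2 fold change 0.30 ± 0.09 SE, adjusted p = 0.0659). It was called with the block (0.0051), after rescaling to a common total (0.0121), with median-ratio scaling (0.0415) and without PAKG replicate 2 (0.0284).

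Gsta4, a transferase of the alpha class that detoxifies the lipid peroxidation product 4-hydroxynonenal, was low but separated the groups, with 0.61, 0.77 and 0.53 FPKM in PAKG, against 0.00, 0.17 and 0.17 FPKM in OC. On its transcript of 977 bases these values are worth an estimated 16.9 to 25.9 fragments in PAKG and 0 to 6.13 in OC. The mean of Gsta4 lay under the minimum. With no filter its log2 fold change was 1.91 ± 0.43 (SE, limma adjusted p = 0.0594 over 25742 genes), so it was not called there either. Gstp1, the pi class enzyme, averaged 153.8 ± 24.4 FPKM in PAKG and 146.8 ± 18.8 FPKM in OC (SD, n = 3 each; log2 fold change 0.06, limma adjusted p = 0.822), and 57.7% of its 75-base stretches also occur in Gstp2 or a pseudogene. The microsomal Mgst3 averaged 10.1 ± 0.592 FPKM in PAKG and 11.3 ± 1.98 FPKM in OC (log2 fold change -0.14, adjusted p = 0.52). Mgst1 was listed at 0 in 3 libraries and at 0.06 to 0.08 FPKM in the others, an estimated 2.41 to 3.45 fragments, and no difference was detectable at this depth.

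The pentose phosphate pathway supplies the NADPH that glutathione and thioredoxin reductases use. G6pdx, glucose-6-phosphate dehydrogenase, its first step (ENSMUSG00000031400, chromosome X, 74409483 to 74429194), had 43.71, 50.32 and 47.00 FPKM in PAKG, against 55.53, 53.92 and 55.51 FPKM in OC. Every PAKG library was below every OC library, without a call (log2 fold change -0.23 ± 0.07 SE, limma adjusted p = 0.0785), and with the block the adjusted p was 0.0370. Pgd, the other NADPH-forming step, had 18.62, 18.05 and 17.94 FPKM in PAKG, against 20.25, 19.34 and 20.51 FPKM in OC, also without overlap and without a call (log2 fold change -0.14 ± 0.06 SE, adjusted p = 0.198, with the block 0.0751). Taldo1 and Tkt of the non-oxidative branch, which rearranges sugars and forms no NADPH, had log2 fold changes of 0.05 (adjusted p = 0.816) and 0.08 (0.521), with overlapping groups.

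**Figure D4:**
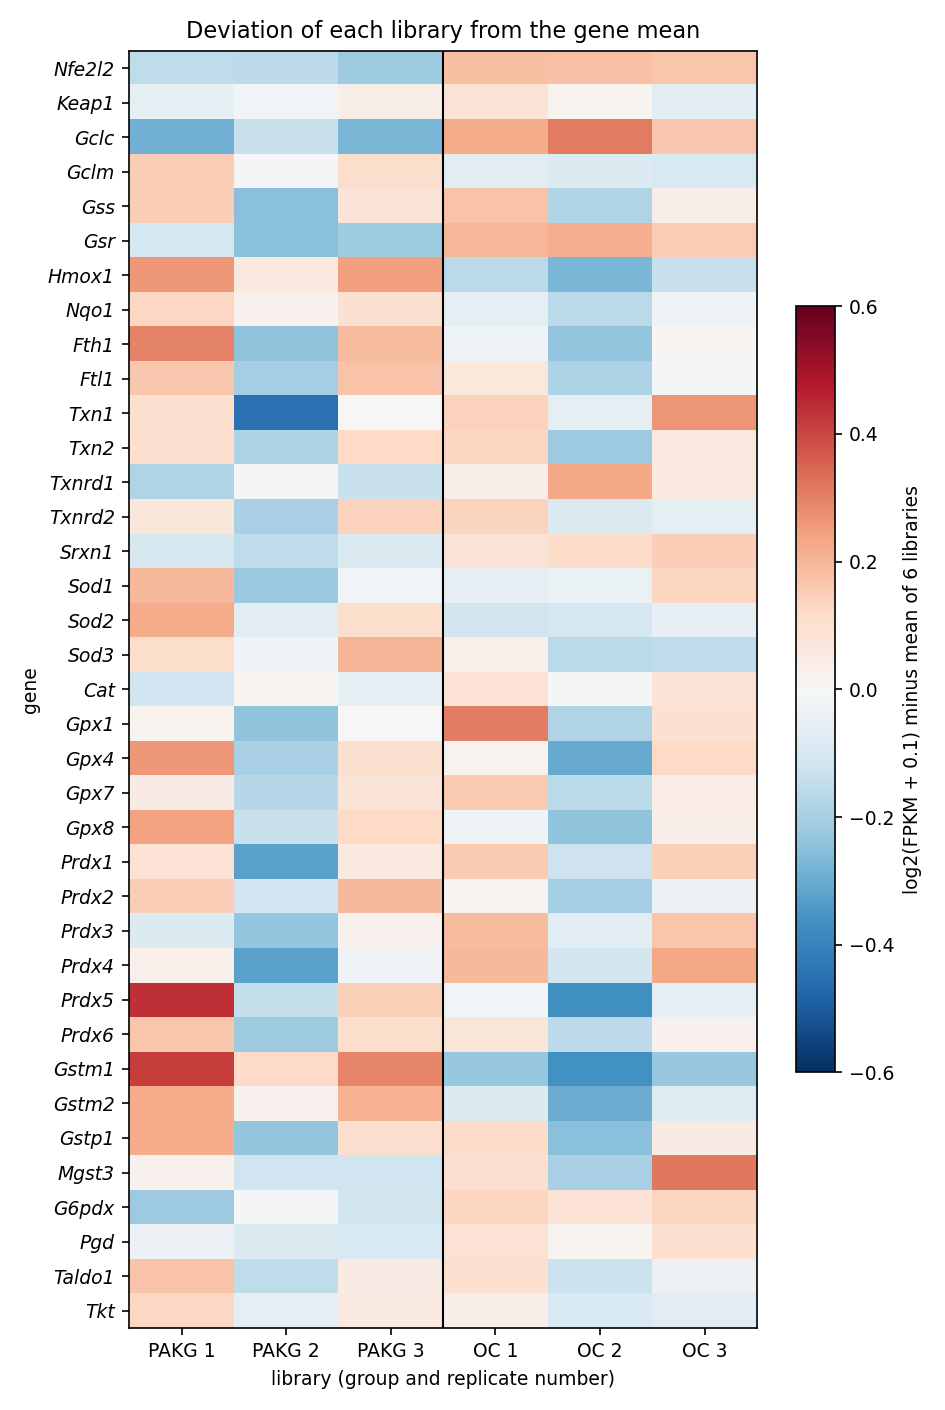
Deviation of each library from the mean of the 6 libraries, in log2(FPKM + 0.1), for 37 tested members (Gpx3 is left out), PAKG libraries on the left and OC libraries on the right of the black line. Red is above and blue below the gene's mean. Replicate 2 is blue in many rows of both groups, whereas Nfe2l2, Gclc, Gsr, Hmox1 and Gstm1 keep one colour on each side of the line. Some members without a call do so too, among them Gstm2, Srxn1 and G6pdx.

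Replicate 2 had the lowest total FPKM in both groups, 289675.86 in PAKG and 295863.62 in OC, and it stood apart in the members. The part of the totals in the member values was not tested. Of the 38 tested members, 24 (63.2%) had their lowest PAKG value in PAKG replicate 2 and their lowest OC value in OC replicate 2, against 31.2% of all genes tested. Txn1, Fth1, Prdx5 and Gpx4 show this, with replicate 2 the lowest in each group, and Txnrd1 and Gclc have it as the highest. What the replicate number stands for is not given in the sources used here. Without replicate 2 of both groups, an alternative added after the values were seen, limma called 4 of the 38 members higher (10.5%, against 9.53% of all genes) and 6 lower (15.8%, against 12.3% of all genes). They were the 5 called in all libraries together with Gstm2 and Fth1 on the higher side and G6pdx, Prdx4 and Txnrd1 on the lower side.

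Of 91 other genes of the same pathways, in 5 hand-made lists, 70 were tested, of which limma called 7 higher (10.0%, against 5.97% of all genes tested) and 7 lower (10.0%, against 8.73%), and their median log2 fold change was -0.02. The single lists are small, and their counts are a description. Among other glutathione transferases and peroxidases 2 of 10 tested were higher and 0 lower, among genes of glutathione breakdown and transport 1 of 12 was higher and 2 lower, and among glutaredoxins and thioredoxin-related genes 1 of 18 was higher and 2 lower. Of the partners and repressors of NRF2 0 of 11 were higher and 1 was lower, and of other NRF2 target enzymes 3 of 19 were higher and 2 lower. The 4 with the smallest adjusted p again pointed both ways. Me1, malic enzyme, another source of NADPH, had 63.28, 59.15 and 60.51 FPKM in PAKG, against 43.14, 43.34 and 41.73 FPKM in OC (log2 fold change 0.51 ± 0.06 SE, limma adjusted p = 0.00209). Gstt1, a transferase of the theta class, had 15.76, 16.04 and 16.49 FPKM in PAKG, against 10.90, 9.56 and 11.34 FPKM in OC (log2 fold change 0.60 ± 0.08 SE, adjusted p = 0.00331). These rises were as clear as that of Gstm1, without overlap between groups. Maff, a small MAF partner of NRF2, had 0.89, 0.94 and 0.90 FPKM in PAKG, against 1.72, 1.51 and 1.72 FPKM in OC (log2 fold change -0.79 ± 0.13 SE, adjusted p = 0.00639). Ugdh, which makes UDP-glucuronate, had 15.93, 15.35 and 14.98 FPKM in PAKG, against 19.15, 19.90 and 19.77 FPKM in OC (log2 fold change -0.34 ± 0.06 SE, adjusted p = 0.0113), a call that was lost without PAKG replicate 3 or OC replicate 3 (adjusted p up to 0.0764).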

How the data were processed

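Each library has 1 deposited table of FPKM, fragments normalised to transcript length and to mapped fragments, rounded to 2 decimals, for the same 26187 genes. Per the submitters' processing notes, reads were handled with cutadapt and FastQC, HISAT2 and StringTie were used on GRCm38, and DESeq2 is listed too. No tool version and no annotation release is given in the sources used here. Coordinates and transcripts came from GENCODE M21, where 99.76% of the IDs occur. A count model needs counts and was not run on FPKM, and depth is an estimate from genes of 250 to 800 bases with 1 transcript.

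Values were transformed to log2(FPKM + 0.1), and 12590 genes whose mean reached 0.5 FPKM were fitted in R 4.3.3 with limma 3.58.1 (eBayes with trend), PAKG against OC, with 2-sided p-values adjusted over all of them by the Benjamini-Hochberg method. Fold changes are on that scale, which understates the change of low genes, and standard errors are moderated. The fit was tested on simulated data. Ratios were compared with an exact permutation test in Python 3.11.15 with scipy 1.17.1.

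The members and lists were chosen with earlier results of these data known. Per-library values are given for Nfe2l2, Keap1, Hmox1, Nqo1, Gclc, Gclm, Slc7a11, Srxn1, Txnrd1 and each called member, and for the 4 genes of the other lists with the smallest adjusted p; other members with such values were chosen after these were seen. Replicate numbers come from the labels, which do not say what they mark. Deviations from the group means correlated at 0.192 to 0.43 for libraries with the same number, each over 0.1, and at -0.312 to 0.138 for others. The highest of the others, PAKG replicate 3 with OC replicate 1, was over 0.1 too. On these values the pairing was also fitted as a replicate block. Alternatives were pseudocounts of 1 and 0.01, no filter, a filter at 1 FPKM, a common total, median-ratio scaling, no trend, the block and each library left out. Leaving out replicate 2 of both groups was chosen after seeing the data.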

Additional observations from a re-analysis of the deposited data

How the results depend on the processing

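Over 15 alternatives, 512 of 569 member values kept their direction and their side of the threshold; 7 lost a call, 19 gained one and 31 changed sign, all of these in 11 members without a call. The count of members called higher, 2, was 1 to 3 with a library left out, and the count called lower, 3, was 1 to 4, with 1 higher and 1 lower without PAKG replicate 3. With the replicate block the counts were 5 higher and 8 lower, and without replicate 2 of both groups 4 and 6. The median log2 fold change of the members ranged from -0.04 to 0.11 with a library left out and from 0.01 to 0.06 otherwise, against a typical replicate SD of a member of 0.142. No member reached both thresholds under any alternative. For Slc7a11, Gsta4 and Mgst1 the rounding of FPKM to 2 decimals limits the precision.

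After rescaling to a common total the log2 fold change was 0.023 for Keap1, 0.027 for Gss, 0.017 for Sod1 and 0.017 for Gpx7, and with median-ratio scaling 0.0026 for Keap1 and 0.0064 for Gss. Without replicate 2 of both groups it was 0.0073 for Gss and 0.049 for Sod1. With a library left out, values ranged from -0.061 to 0.012 for Keap1, -0.11 to 0.10 for Gss, -0.086 to 0.12 for Txn2, -0.057 to 0.11 for Txnrd2, -0.13 to 0.075 for Sod1, -0.018 to 0.23 for Gpx4, -0.12 to 0.049 for Gpx7, -0.21 to 0.015 for Prdx1, -0.033 to 0.16 for Prdx6, -0.047 to 0.20 for Gstp1 and -0.029 to 0.13 for Taldo1. The cause was not tested.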
